A study of Mus musculus with 16 samples.

Results

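A set of 10 genes of Toll-like receptor (TLR) sensing was followed in RNA-sequencing data of mouse bone marrow-derived macrophages (BMDMs): 8 receptors (Tlr1, Tlr2, Tlr3, Tlr4, Tlr6, Tlr7, Tlr9 and Tlr13), the co-receptor Cd14 and the adaptor Myd88. They were chosen by name and matched to the Ensembl identifiers of the deposited count table, with no rule on their values. The table holds 55487 genes, of which 12372 passed the filter on low counts (above 1 CPM, counts scaled to the library total, in at least 2 samples), and all 10 were among them.

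Toll-like receptors recognise molecules of microbes and of damaged tissue and start inflammatory gene expression in macrophages. TLR1, TLR2, TLR4 and TLR6 act at the cell surface, where TLR2 pairs with TLR1 or TLR6 to bind lipoproteins and TLR4 binds lipopolysaccharide handed over by CD14. TLR3, TLR7, TLR9 and TLR13 sit in endosomes and bind nucleic acids. All of these receptors except TLR3 signal through MYD88, which leads to activation of the IKK kinases and of the transcription factor NF-κB.

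The macrophages were grown from bone marrow of WT mice of the Balb/c strain, aged 8 weeks, and received DMEM or conditioned medium (CM) of 4T1 cells, a mouse mammary tumor cell line. Some cells were also given ruxolitinib (Rux), a JAK1 and JAK2 inhibitor, alone or with IKK-16, an inhibitor of IKK kinases. The samples comprised 2 of DMEM, 3 of DMEM + Rux, 3 of CM, 3 of CM + Rux with 0.5 μM ruxolitinib, 3 of CM + Rux + IKK-16 with the same ruxolitinib dose plus 0.8 μM of IKK-16, and 2 of CM + Rux with 2 h in the label. The other CM + Rux samples carry 4 h in the label, which is also the time of treatment in the study's methods. By the methods, cells were serum starved for 2 h before CM was added. Ruxolitinib was added during this pre-treatment where cells received it with CM, and IKK-16 was added together with CM. The labels of DMEM, DMEM + Rux, CM and CM + Rux + IKK-16 give no time, and the sources used here do not say what the label's 2 h marks. The labels give no dose for DMEM + Rux, and no sample had IKK-16 without ruxolitinib. The methods give the samples as triplicates and say in general that experiments were repeated, but do not say whether these replicates were separate animals, cultures or experiments, so p-values measure the spread between these samples, which may be technical.

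Counts per sample summed to between 18449388 and 46215853, and replicates of a group differed by more than sampling noise in all 14 pairs (chi-square per degree of freedom 14.2 to 54.4). The 10 macrophage markers, Cd14 among them, summed to between 40648 and 57835 CPM per sample, whereas 8 epithelial markers, which 4T1 cells could have supplied, summed to at most 1.5 CPM, with Krt14 and Krt5 at 0 in every sample. Sums of the other marker lists reached at most 1.36 CPM for B cells, 3.35 for neutrophils, 13.1 for T and NK cells, 13.5 for dendritic cells and 33.9 for fibroblasts. The T and NK sum was nearly all Cd4 (4.81 to 13.1 CPM), with Cd3g, Cd8a, Trac, Ncr1 and Nkg7 at 0 in every sample. Of the neutrophil markers only S100a8 exceeded 1 CPM in any sample, at up to 2.46 CPM.

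Stretches just upstream of the annotated transcripts are shown for Tlr2, which rose in CM, and for Tlr9 and Tlr13, which fell in CM and moved together in later comparisons. Promoter windows of 300 bases around the RefSeq start were given for 7 of the 10 genes, not for Tlr4, Tlr7 and Cd14. They were searched on both strands for an NF-κB motif, a STAT motif (TTCNNNGAA), the core of the motif of PU.1, the lineage factor of macrophages (GAGGAA), and an AP-1 motif (TGANTCA). The printed parts are those upstream of all annotated exons, from RefSeq in GRCm38.p6, and capitals mark motif matches. Tlr2 lies on the reverse strand of chromosome 3 (gene at chr3:83836272-83841767, stretch at chr3:83841768-83841858). Tlr9 lies on the forward strand of chromosome 9 (gene at chr9:106222598-106226883, stretch at chr9:106222348-106222597), and Tlr13 on the forward strand of chromosome X (gene at chrX:106143204-106160493, stretch at chrX:106143025-106143203).
Tlr2: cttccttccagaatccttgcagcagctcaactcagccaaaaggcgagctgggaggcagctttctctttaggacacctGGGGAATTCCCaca
Tlr9: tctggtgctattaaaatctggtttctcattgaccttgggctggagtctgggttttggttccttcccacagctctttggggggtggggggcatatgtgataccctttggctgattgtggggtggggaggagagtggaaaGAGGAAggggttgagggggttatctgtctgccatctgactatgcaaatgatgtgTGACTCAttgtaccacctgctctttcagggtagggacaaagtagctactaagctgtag
Tlr13: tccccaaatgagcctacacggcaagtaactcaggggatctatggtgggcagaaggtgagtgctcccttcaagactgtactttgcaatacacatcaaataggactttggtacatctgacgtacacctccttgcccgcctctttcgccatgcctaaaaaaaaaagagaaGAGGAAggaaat
The capitals in Tlr2 are 2 overlapping NF-κB matches that begin at -173 and -172 relative to its RefSeq start, and a further match begins at -8, outside the printed part. In Tlr9 the capitals mark GAGGAA at -112 and TGACTCA at -58, and in Tlr13 GAGGAA at -83. Matches outside the printed parts were an NF-κB match at -211 in Tlr3, which fell in CM, STAT matches at -228 in Tlr1, at -3 and 8 in Tlr6 and at -46 in Myd88, and GAGGAA at -23 in Tlr1 and at 13 in Tlr9. Among all 32851 promoter windows, 8.46% held the NF-κB motif, 8.30% the STAT motif, 28.3% GAGGAA and 7.81% the AP-1 motif. The matches describe letters in these windows and do not show that a factor binds.

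Levels are given as CPM scaled by relative log expression (RLE), which suits the comparison of a gene between samples. Genes were compared with each other as FPKM, which also divides by the length of the exons. By FPKM the order in DMEM was Cd14 (1219 ± 338, SD, n = 2), Tlr13 (116 ± 12.9), Tlr2 (113 ± 19.6), Tlr7 (81.6 ± 16.8), Myd88 (49.9 ± 4.88), Tlr4 (40.1 ± 2.05), Tlr1 (29.3 ± 1.13), Tlr9 (21.5 ± 5.75), Tlr6 (10.2 ± 0.795) and Tlr3 (5.18 ± 0.385). The ranges of Tlr13 and Tlr2 overlapped, and all other neighbours in this order were separate. In CM the order was Cd14 (7822 ± 1179, n = 3), Tlr2 (675 ± 102), Myd88 (73.2 ± 3.2), Tlr4 (42.9 ± 4.67), Tlr1 (36.4 ± 7.24), Tlr13 (23.2 ± 5.07), Tlr7 (18.4 ± 3.06), Tlr6 (11.3 ± 0.944), Tlr9 (3.16 ± 0.628) and Tlr3 (2.81 ± 0.319). Tlr13, which with Tlr2 led the receptors in DMEM, was below Tlr2, Tlr4 and Tlr1 in CM. In CM the neighbours Tlr4 and Tlr1, Tlr13 and Tlr7, and Tlr9 and Tlr3 overlapped. The lowest gene, Tlr3, had 188 to 865 fragments per sample, and the other 9 had at least 209.

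**Figure D1:**
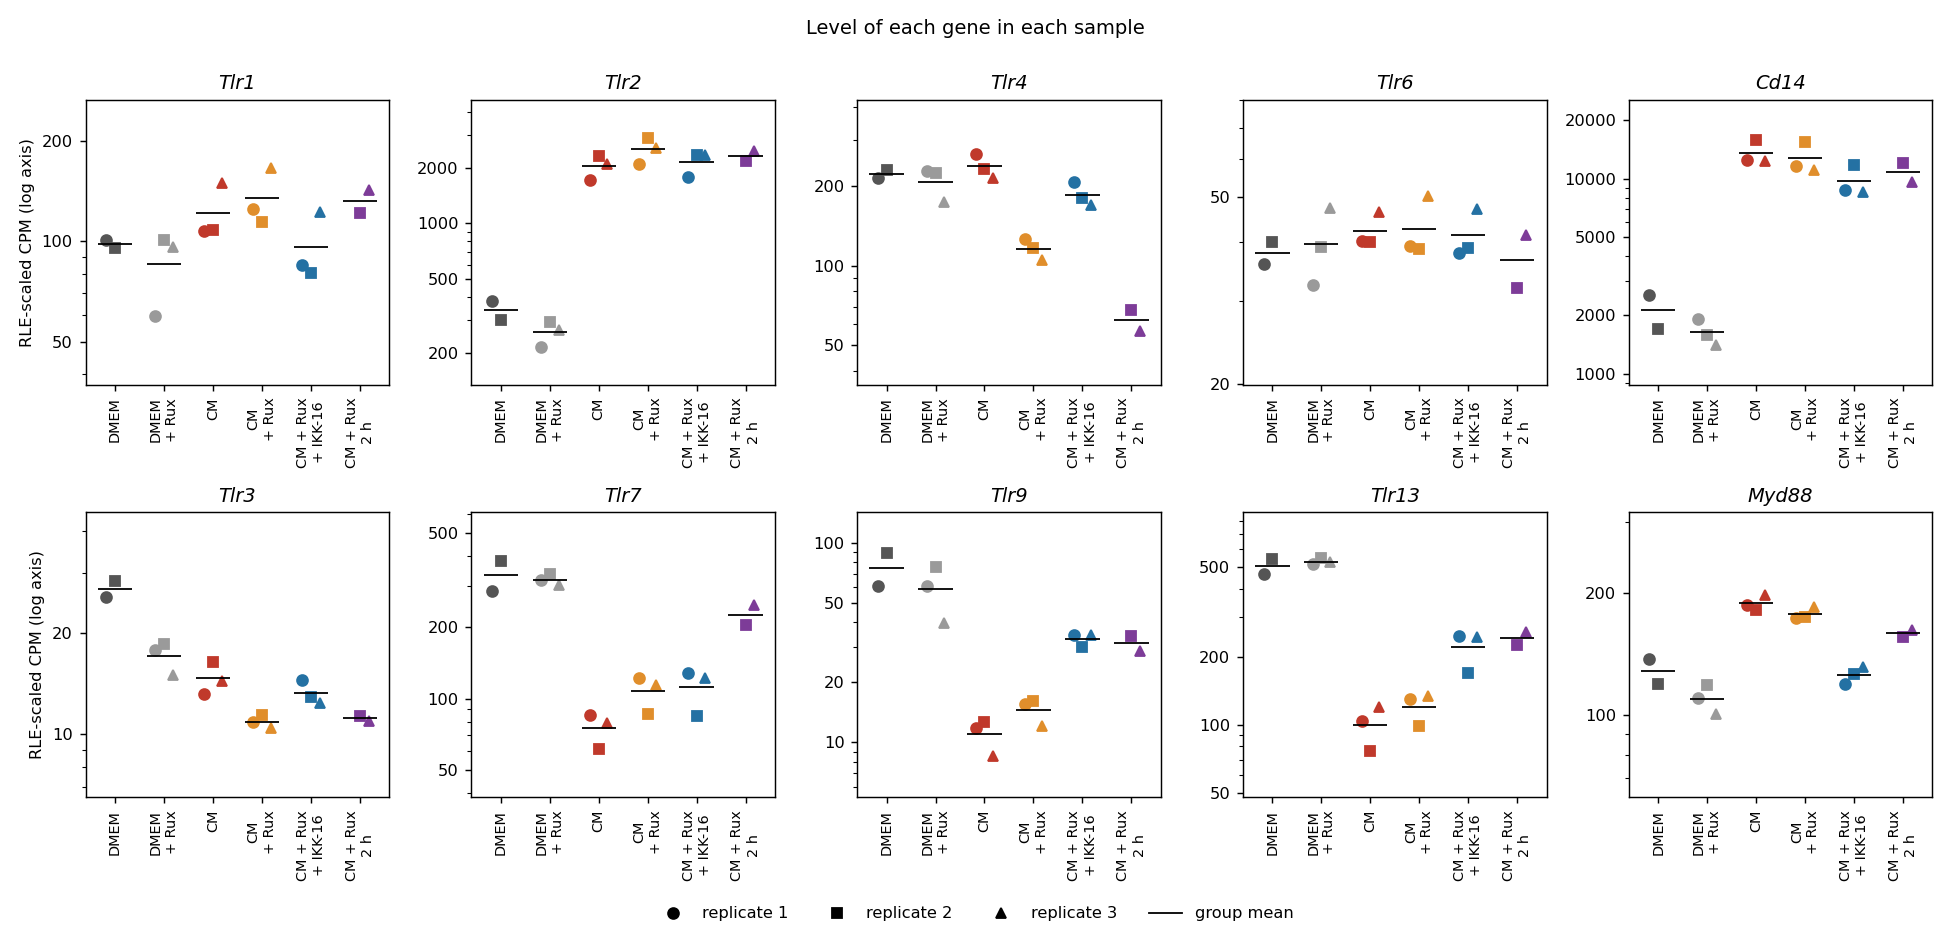
RLE-scaled CPM (log axis) of the 10 genes in each of the 16 samples, by group, with 1 symbol per replicate number and a line at the group mean. Tlr2 and Cd14 are higher and Tlr7, Tlr9 and Tlr13 lower in all 11 samples with CM than in the 5 samples without it, and Tlr4 is lowest in the 2 CM + Rux samples with 2 h in the label.

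The first comparison, CM against DMEM, asked how soluble factors of tumor cells change the macrophages. By the methods 4T1 cells were grown in medium with RPMI, and the medium in which CM was collected is not named. CM and DMEM may thus also differ in base medium, and its part was not tested. Tlr2, Cd14 and Myd88 rose and the 4 endosomal receptors Tlr3, Tlr7, Tlr9 and Tlr13 fell, while Tlr1, Tlr4 and Tlr6 did not pass the test. A gene was called at an adjusted p (Benjamini-Hochberg, over all 12372 genes) under 0.05 in the quasi-likelihood test of edgeR with a log2 fold change beyond 0.5. Thus 3 of the 10 were called higher, where 20.9% of all genes were, and 4 were called lower, where 24.1% were. The median log2 fold change of the 10 was 0.13, beside -0.005 over all genes. In bulk samples fewer cells of a type and less RNA per cell cannot be told apart.

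Among the surface receptors, Tlr2 read 384 and 300.1 CPM in the 2 DMEM samples and 1703, 2314 and 2085 CPM in CM. Every CM sample was far above both DMEM samples. The rise was 5.95-fold (log2 fold change 2.57, SE 0.20, adjusted p = 1.8e-07).

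Cd14, which binds lipopolysaccharide and other ligands and passes them on to TLR4 and TLR2, read 2525 and 1697 CPM in DMEM and 12416, 15905 and 12322 CPM in CM. The groups were far apart, and the rise was 6.42-fold (log2 2.68, SE 0.24, adjusted p = 6e-07).

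For Tlr4, the levels were 214 and 231 CPM in DMEM and 266, 234 and 215 CPM in CM. The groups overlapped, with a log2 fold change of 0.10 (95% confidence interval -0.19 to 0.39). Tlr1 (log2 0.31, interval -0.20 to 0.83) and Tlr6 (log2 0.15, interval -0.20 to 0.51) did not pass either. Neither overlapped between the groups, but the closest samples of Tlr6 read 40.15 CPM in DMEM and 40.16 CPM in CM. The share of all genes without overlap was not computed for any comparison. Tlr1 and Tlr6 lie side by side on chromosome 5 and are similar in sequence: 7.89% of the 100-base windows of Tlr1 transcripts and 7.09% of those of Tlr6 also occur in the other gene, and fragments with several alignments were left out of the counts.

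Of the endosomal receptors, Tlr13, a sensor of bacterial ribosomal RNA, read 462 and 541 CPM in DMEM and 104, 76.3 and 119 CPM in CM. It fell 5.03-fold (log2 -2.33, SE 0.19, adjusted p = 2.5e-07). Tlr7, a sensor of single-stranded RNA (gene at chrX:167304929-167330558), read 285 and 382 CPM in DMEM and 85.5, 61.4 and 78.9 CPM in CM, a log2 fold change of -2.15 (SE 0.20, adjusted p = 6.7e-07). For both genes the highest CM sample was far below the lowest DMEM sample.

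Tlr9, the receptor of unmethylated CpG DNA, fell the most of the 10. It read 60.8 and 89.1 CPM in DMEM and 11.8, 12.6 and 8.50 CPM in CM, where 209 to 425 fragments were counted, and fell 6.80-fold (log2 -2.77, SE 0.24, adjusted p = 5e-07). Tlr3, the sensor of double-stranded RNA, fell less, from 25.5 and 28.4 CPM to 13.1, 16.4 and 14.4 CPM (log2 -0.88, SE 0.12, adjusted p = 1.8e-05). None of the 4 overlapped between the groups, and the share of all genes without overlap was not computed.

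Markers of other cells moved with this comparison. The 6 B cell markers summed to 1.24 and 1.31 CPM in DMEM and to between 0.222 and 0.285 CPM in CM, with 3 of the 6 at 0 in DMEM and 2 at 0 in CM. Cd79b, the 1 of them that passed the filter, read at most 1.21 CPM in any sample. It passed only through samples without CM, so the filter favoured its lower level in CM (log2 -2.95), which is not given as a test. The 8 epithelial markers summed to at most 0.118 CPM in DMEM and to 1.06 to 1.5 CPM in CM, with 5 and 2 of them at 0. The 10 neutrophil markers summed to at most 0.413 CPM in DMEM and to 1.83 to 3.35 CPM in CM, with 6 and 3 at 0, among them Ly6g. The 8 dendritic cell markers summed to 1.76 and 2.01 CPM in DMEM and to 2.56 to 3.46 CPM in CM, with 2 and 1 at 0. Their part in the results was not tested.

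Myd88 (chr9:119335934-119341411) read 137 and 120 CPM in DMEM and 187, 181 and 198 CPM in CM. The groups were separate and the rise was 1.47-fold (log2 0.55, SE 0.08, adjusted p = 5.9e-05), just past the fold threshold. Myd88 overlaps Slc22a14 on the same strand, and fragments assigned to several genes were left out of the counts. Scaling by total counts alone instead of RLE lowered all log2 fold changes of this comparison by 0.31 and called 1536 genes higher and 4605 lower, against 2584 and 2980 with RLE. Under total counts Myd88 had a log2 fold change of 0.24 and was not called, and the small positive differences of Tlr4 and Tlr6 turned negative (log2 -0.21 and -0.16). Without DMEM replicate 2 the Myd88 difference was 0.46, also under the threshold.

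**Figure D2:**
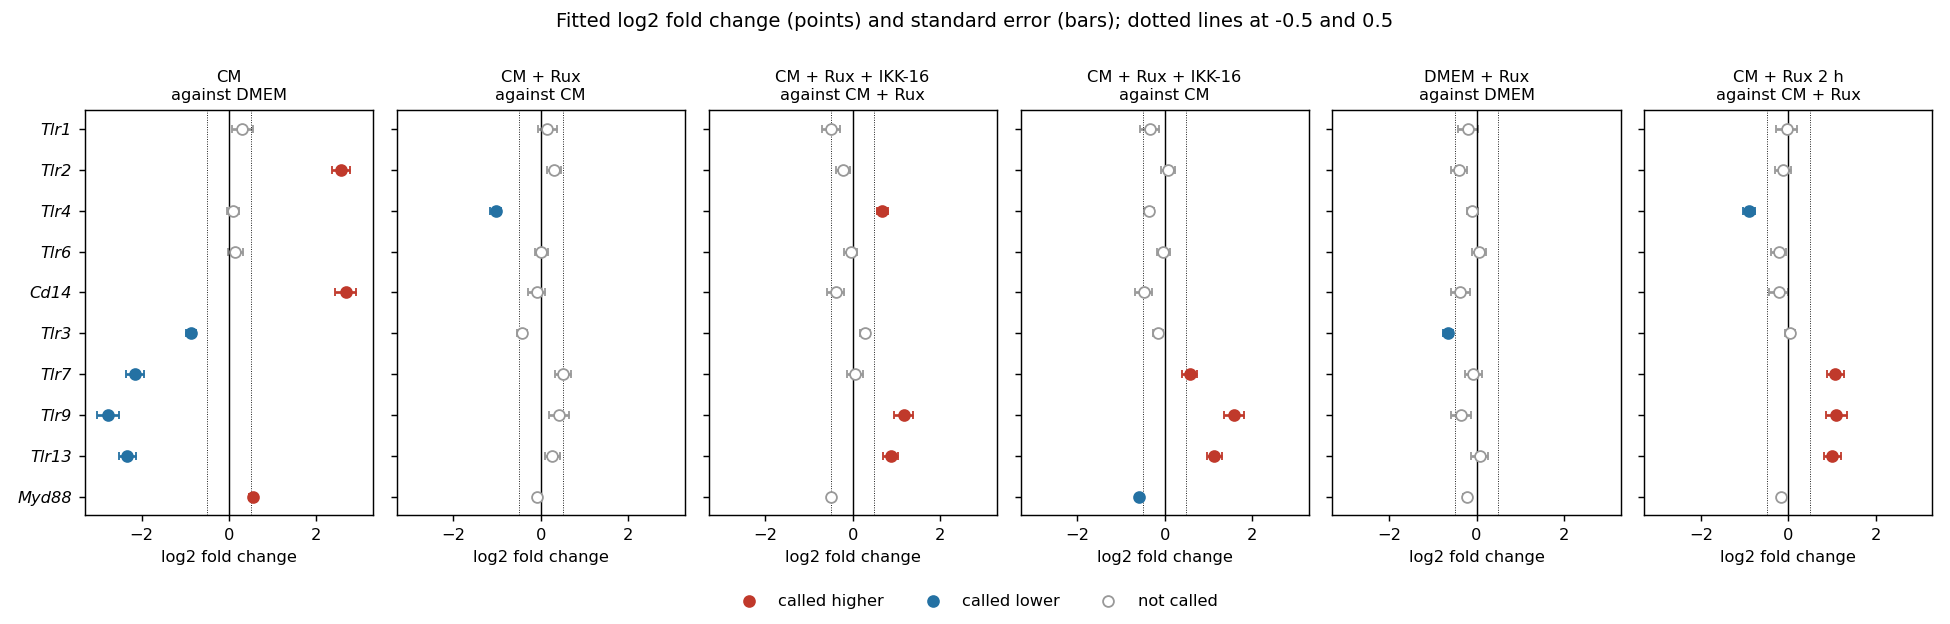
Log2 fold change (point) and standard error (bar) of each gene in 6 comparisons, with filled symbols for called genes and dotted lines at the fold threshold of 0.5. In CM against DMEM 7 genes are called, from -2.77 for Tlr9 to 2.68 for Cd14. In CM + Rux against CM the 1 called gene is Tlr4 at -1.04.

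The make-up of the receptor transcripts differed between DMEM and CM. Summed over the 8 receptors, FPKM was 418 ± 18.0 (SD, n = 2) in DMEM and 813 ± 95.7 (n = 3) in CM. The 4 endosomal receptors held 53.7% ± 6.27 of that sum in DMEM (49.2% and 58.1%) and 5.96% ± 1.41 in CM (4.43% to 7.22%), with no overlap. Their own sum was 225 ± 35.9 FPKM in DMEM and 47.6 ± 7.02 FPKM in CM, and the share of Tlr2 alone went from 27.3% ± 5.87 to 82.8% ± 3.07. DMEM + Rux, at 58.1% ± 2.47 endosomal, overlapped the DMEM range, and CM + Rux, at 6.39% ± 1.64, overlapped that of CM. CM + Rux + IKK-16 held 10.5% ± 2.77 and the 2 samples with 2 h in the label held 12.9% and 13.0%. These shares describe the same values as the tests of single genes and were not tested. Tlr8, another endosomal receptor, is not among the 8, so the shares hold for this set only.

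**Figure D3:**
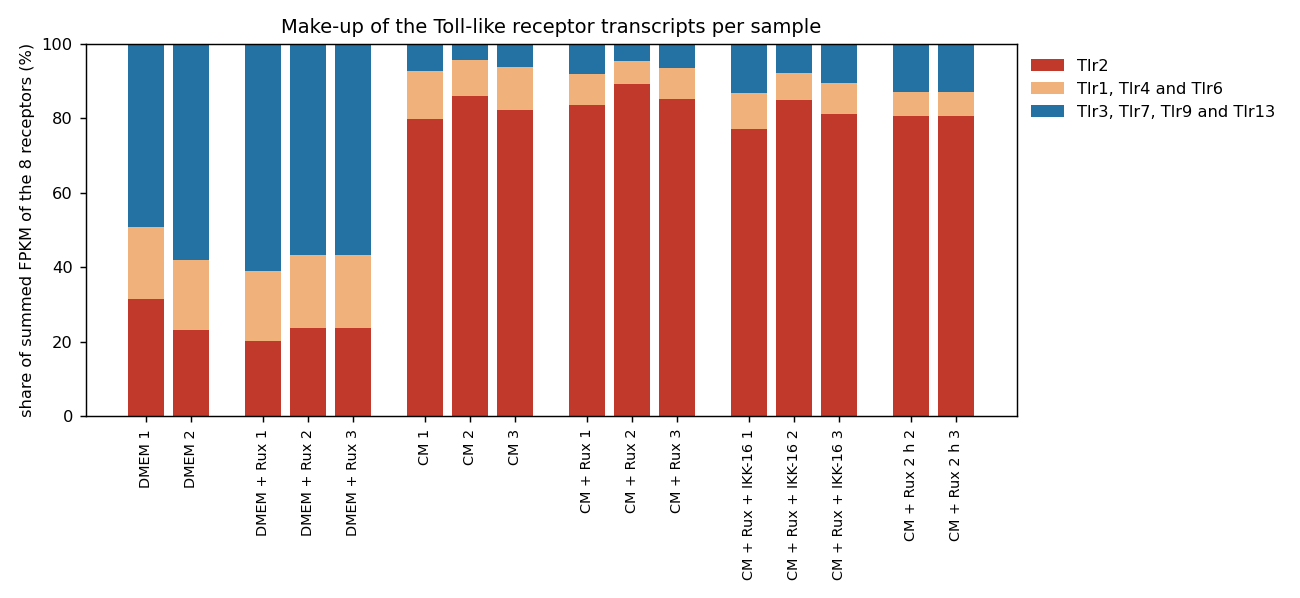
Share of the summed FPKM of the 8 receptors held by Tlr2, by the other surface receptors and by the endosomal receptors in each sample, in percent. Endosomal receptors of the set hold 49.2% to 60.9% in the 5 samples without CM and 4.43% to 13.3% in the 11 samples with CM. Tlr8, another endosomal receptor, is not among the 8.

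Ruxolitinib was then compared with no inhibitor in DMEM, without tumor factors. Tlr3 fell and no other gene of the set passed. It read 25.5 and 28.4 CPM in DMEM and 17.8, 18.6 and 15 CPM in DMEM + Rux, so that all 3 treated samples were below both controls. The fall was 1.57-fold (log2 -0.65, SE 0.11, adjusted p = 0.0076). Over all genes 0.97% were called lower and 0% higher. Of the 10, 0 were called higher by edgeR, 0 at an unadjusted p under 0.05 and 0 by DESeq2. Their median log2 fold change was -0.21, beside 0.01 over all genes. The Tlr3 call was lost without DMEM replicate 2 (log2 -0.58, adjusted p = 0.10) and with only the DMEM groups in the fit (log2 -0.66, adjusted p = 0.092).

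The other 9 did not pass in DMEM. Tlr2 was 216, 293 and 266 CPM in DMEM + Rux, all below the DMEM samples, but with adjusted p = 0.94 (log2 -0.40, 95% interval -0.80 to -0.01). Myd88, at 110, 118 and 101 CPM, was also below both controls without passing (log2 -0.23, adjusted p = 0.61). Tlr4 at 228, 224 and 174 CPM overlapped DMEM (log2 -0.09, interval -0.38 to 0.20), as did Tlr13 at 512, 544 and 524 CPM (log2 0.07, interval -0.34 to 0.48). Tlr1, Tlr6, Tlr7, Tlr9 and Cd14 overlapped too, with log2 fold changes from -0.37 for Cd14 to 0.06 for Tlr6.

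The comparison of CM + Rux with CM asked what JAK inhibition changes in macrophages exposed to tumor factors. Tlr4 fell, and it was the 1 gene of the 10 that was called lower, where 2.13% of all genes were. It read 266, 234 and 215 CPM in CM and 127, 117 and 105 CPM in CM + Rux. The highest sample with ruxolitinib was well below the lowest without it, and the ratios of same-numbered samples were 0.476, 0.500 and 0.488. The fall was 2.05-fold (log2 -1.04, SE 0.12, adjusted p = 0.00024). The median log2 fold change of the 10 was 0.08, beside 0.007 over all genes. Tlr4 lies at chr4:66827584-66930284 on the forward strand.

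No gene of the set was called higher by edgeR or by DESeq2 (0 of 10 in each), where edgeR called 1.2% of all genes higher. At an unadjusted p under 0.05, 1 was higher, and the share of all genes at that looser threshold was not computed. The 1 gene was Tlr7, which read 122, 85.7 and 115 CPM against 85.5, 61.4 and 78.9 CPM in CM. Replicate 2 was the lowest in both groups, and each sample with ruxolitinib was 1.42, 1.40 and 1.45 times its same-numbered sample, but the adjusted p was 0.14 (log2 0.51, SE 0.18) and 0.052 with the replicate number as a block. Tlr9 (log2 0.42, 95% interval -0.07 to 0.91) and Tlr13 (log2 0.27, interval -0.10 to 0.64) overlapped between the groups.

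Tlr3 read 13.1, 16.4 and 14.4 CPM in CM and 10.9, 11.4 and 10.4 CPM in CM + Rux. It was lower in all 3 samples with ruxolitinib with adjusted p = 0.035, but its log2 fold change of -0.43 (SE 0.11) was within the fold threshold. Tlr2 at 2097, 2900 and 2550 CPM (log2 0.31, 95% interval -0.05 to 0.66), Cd14 at 11693, 15366 and 11094 CPM (log2 -0.09, interval -0.51 to 0.33) and Myd88 at 174, 175 and 185 CPM (log2 -0.08, interval -0.24 to 0.07) overlapped with CM. Within same-numbered pairs Tlr2 was 1.23, 1.25 and 1.22 times its level in CM (adjusted p = 0.16 with the replicate block), and Cd14 was 0.942, 0.966 and 0.900 times. Tlr1 and Tlr6 also overlapped.

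Marker sums that did not overlap between CM and CM + Rux were those of B cells, at 0.222 to 0.285 CPM in CM and 0.356 to 0.647 CPM in CM + Rux, of epithelial cells, at 1.06 to 1.5 and 0.339 to 1.02 CPM, and of fibroblasts, at 26.9 to 30.5 and 31.8 to 33.9 CPM. Their part in the results was not tested.

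Whether ruxolitinib acted differently in CM and in DMEM was tested directly, as the difference between both ruxolitinib effects. Tlr4 was called, with a difference of -0.94 (log2, SE 0.18, adjusted p = 0.041), where 0.178% of all genes were called lower. The median difference of the 10 was 0.25, beside -0.002 over all genes. The Tlr4 call was lost without any one of 9 of the 11 samples of those 4 groups, with the difference between -1.01 and -0.86 and adjusted p between 0.052 and 0.22, and was kept without CM replicate 3 or DMEM + Rux replicate 3. By edgeR 0 of the 10 were called higher, where 0.234% of all genes were, and by DESeq2 also 0. At an unadjusted p under 0.05 with a log2 difference beyond 0.5 there were 3 (Tlr2, Tlr7 and Tlr9). The share of all genes at that looser threshold was not computed. With the replicate number as a block, Tlr2 was called higher (log2 0.78, adjusted p = 0.036, against 0.71 and adjusted p = 0.30 without it).

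Addition of IKK-16 was compared with CM + Rux, which addresses the part of IKK kinases in the cells given ruxolitinib. Tlr4, Tlr9 and Tlr13 rose and no gene of the set was called lower. Over all genes 4.07% were called higher and 3.66% lower, or 504 and 453 genes, against 727 and 350 under scaling by total counts. The median log2 fold change of the 10 was 0.01, beside -0.002 over all genes. Of the 10, 0 were called lower by edgeR, 0 at an unadjusted p under 0.05 with the fold threshold and 0 by DESeq2.

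Tlr4 rose from 127, 117 and 105 CPM to 208, 180 and 170 CPM. All 3 samples with IKK-16 were above all of CM + Rux, and the rise was 1.6-fold (log2 0.68, SE 0.12, adjusted p = 0.0026). Against CM itself, with 266, 234 and 215 CPM, Tlr4 remained lower without overlap, but the difference (log2 -0.36, SE 0.12, adjusted p = 0.047) was within the fold threshold.

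Tlr9 read 15.7, 16.2 and 12.1 CPM in CM + Rux and 34.6, 30.2 and 34.8 CPM with IKK-16, a rise of 2.26-fold (log2 1.17, SE 0.22, adjusted p = 0.0035). Tlr13 went from 129, 98.2 and 133 CPM to 246, 169 and 245 CPM, or 1.83-fold (log2 0.87, SE 0.17, adjusted p = 0.0047). Neither overlapped between the groups. Both stayed below the DMEM samples, the lowest of which were 60.8 CPM for Tlr9 and 462 CPM for Tlr13.

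Unlike these, Tlr7 overlapped at 128, 84.7 and 122 CPM with IKK-16 against 122, 85.7 and 115 CPM without it (log2 0.06, 95% interval -0.32 to 0.44). Whether the effect on Tlr7 differed from that on Tlr9 and Tlr13 was not tested. Tlr3 was higher in all 3 samples with IKK-16, at 14.5, 12.9 and 12.4 CPM, but did not pass (log2 0.28, adjusted p = 0.096).

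Myd88 read 174, 175 and 185 CPM in CM + Rux and 120, 126 and 132 CPM with IKK-16. The groups were separate, with adjusted p = 0.00075, but the log2 fold change of -0.499 (SE 0.07) lay just within the fold threshold, so the gene was not called. Tlr1 read 125, 114 and 166 CPM in CM + Rux and 85.1, 80.5 and 122 CPM with IKK-16, lower in each same-numbered pair, but the groups overlapped, with replicate 3 the highest in both (log2 -0.49, adjusted p = 0.14). With the replicate number as a block Tlr1 was called lower (log2 -0.50, adjusted p = 0.013), which moved the count from 0 to 1. Tlr2 (1770, 2349 and 2325 CPM, log2 -0.23) and Cd14 (8810, 11757 and 8582 CPM, log2 -0.39) overlapped with CM + Rux. Within same-numbered pairs both were lower with IKK-16, with ratios of 0.844, 0.810 and 0.912 for Tlr2 and 0.753, 0.765 and 0.774 for Cd14, but neither passed with the replicate block (adjusted p = 0.20 for Tlr2 and 0.079 for Cd14).

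Marker sums that did not overlap here were those of dendritic cells, at 3.29 to 3.51 CPM in CM + Rux and 2.14 to 2.65 CPM with IKK-16, and of fibroblasts, at 31.8 to 33.9 and 16.1 to 28.4 CPM. Their part in the results was not tested.

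**Figure D4:**
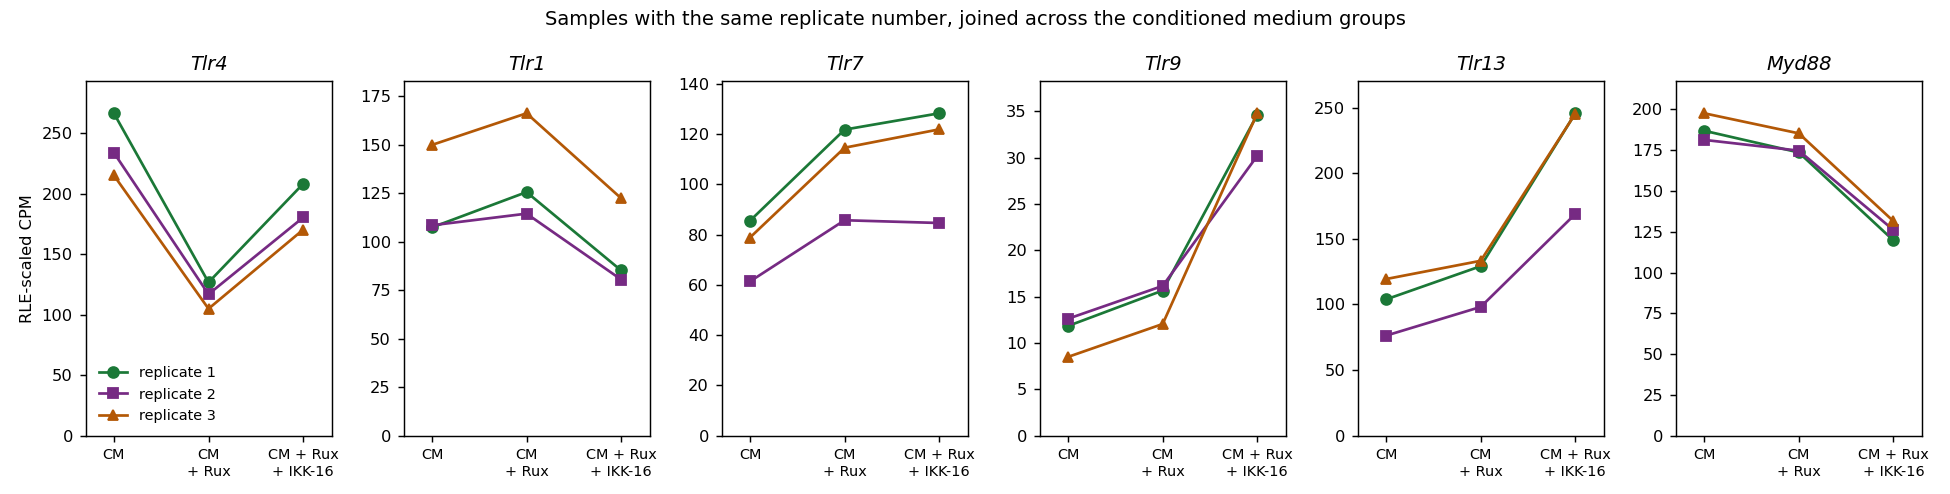
RLE-scaled CPM (linear axis from 0) of 6 genes in CM, CM + Rux and CM + Rux + IKK-16, with lines that join samples of the same replicate number. In all 3 lines Tlr4 is lowest in CM + Rux, Tlr9 and Tlr13 are highest with IKK-16, Tlr7 is lowest in CM, and Myd88 and Tlr1 are lowest with IKK-16.

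Set against CM alone, CM + Rux + IKK-16 had Tlr7, Tlr9 and Tlr13 called higher and Myd88 lower. This comparison shares samples with the preceding ones. Over all genes 6.6% were called higher and 6.13% lower, or 817 and 758 genes, against 1255 and 587 under scaling by total counts. The median log2 fold change of the 10 was -0.09, beside 0.00 over all genes. Tlr9 was 3.02-fold higher (log2 1.59, SE 0.23, adjusted p = 0.00025) and Tlr13 2.21-fold (log2 1.14, SE 0.17, adjusted p = 0.00042). Tlr7 was 1.49-fold higher (log2 0.57, SE 0.18, adjusted p = 0.034), with groups that overlapped by its replicate 2 at 84.7 CPM. Its call was lost when any one of CM replicates 2 and 3 or IKK-16 replicates 1 and 3 was left out (log2 0.44 to 0.61), and with only the 2 groups in the fit (log2 0.58, adjusted p = 0.063).

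Myd88 was 1.5-fold lower than in CM, at 120, 126 and 132 CPM against 187, 181 and 198 CPM (log2 -0.58, SE 0.07, adjusted p = 0.00011). The samples with IKK-16 lay within the DMEM range of 120 to 137 CPM. Under scaling by total counts, 0.11 higher for all genes, the difference was -0.48 and not called. The B cell marker Cd79b, which passed the filter only through samples without CM, read 0.422 against 0.142 CPM (log2 1.55, adjusted p = 0.03). Both means were below the filter's 1 CPM. The B cell sum was 0.397 to 0.824 CPM against 0.222 to 0.285 CPM in CM, and the epithelial sum 0.275 to 0.772 CPM against 1.06 to 1.5 CPM. Their part in the results was not tested.

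The 2 samples of CM + Rux with 2 h in the label were compared with the CM + Rux samples labelled 4 h. Of the 10, 3 (Tlr7, Tlr9 and Tlr13) were called higher and 1 (Tlr4) lower, where 12.6% of all genes were called higher and 10.7% lower. The median log2 fold change of the 10 was -0.08, beside -0.027 over all genes. Tlr4 read 67.7 and 56.7 CPM, the lowest values of any group, against 127, 117 and 105 CPM (log2 -0.90, SE 0.14, adjusted p = 0.00025). Tlr7 read 204 and 248 CPM, all above the 85.7 to 122 CPM of CM + Rux (log2 1.07, SE 0.20, adjusted p = 0.00079).

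Tlr9 read 34.1 and 28.8 CPM (log2 1.1, SE 0.24, adjusted p = 0.0028) and Tlr13 read 224 and 258 CPM (2.01-fold, SE 0.19 on the log2 scale, adjusted p = 0.00099), both without overlap. These levels were near those of CM + Rux + IKK-16, and Tlr7 was well above them. Tlr2 at 2156 and 2444 CPM, Cd14 at 12115 and 9620 CPM, and Tlr3 at 11.3 and 11 CPM overlapped with the samples labelled 4 h. Myd88 at 156 and 162 CPM did not overlap but did not pass (log2 -0.16, adjusted p = 0.14). Dendritic cell markers summed to 9.24 and 13.5 CPM in these 2 samples, most of it Zbtb46, and to between 3.29 and 3.51 CPM in the samples labelled 4 h, with Flt3 at most at 0.167 CPM in any sample. Fibroblast markers, at 22.1 and 30.7 CPM against 31.8 to 33.9 CPM, and neutrophil markers, at 0.414 and 1.58 CPM against 1.72 to 2.44 CPM, did not overlap either. Their part in the results was not tested.

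Replicate numbers left a trace in the set. In CM, CM + Rux and CM + Rux + IKK-16 alike, Tlr7 and Tlr13 were lowest in replicate 2, Tlr1 and Tlr6 were highest in replicate 3, Tlr2 was lowest in replicate 1, and Cd14 was highest in replicate 2. Across the 16 samples, Tlr7, Tlr9 and Tlr13 varied together (Pearson r 0.863 to 0.942, of log2(CPM + 0.5)), as did Tlr2 and Cd14 (r = 0.976), whereas Tlr4 was little related to Tlr7 (r = -0.063), Tlr9 (r = 0.150) or Tlr13 (r = 0.142). These samples share groups, replicate numbers and scaling, so the values are a description over groups that differ widely.

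The rest of the pathway was described by 6 lists with 61 genes, of which 55 were tested. In CM against DMEM 21 of the 55 rose and 11 fell, where 20.9% of all genes were called higher and 24.1% lower, and their median log2 fold change was 0.28 beside -0.005 over all genes. Counted among them are Tlr5, S100a8 and Sarm1, whose direction the filter favoured, as given below. The same shares over all genes stand beside the count of each list that follows, and with 3 to 19 tested genes a list's count is a description. Of the adaptors other than Myd88, 2 of 5 were higher and 1 lower. Tirap, which brings MYD88 to TLR2 and TLR4, rose from a mean of 41.5 to 66.9 CPM (log2 0.69, adjusted p = 4.6e-06), and Ticam1, the adaptor TRIF of TLR3 and TLR4, from 51.5 to 79.4 CPM (log2 0.62, adjusted p = 0.00026). Sarm1 went from 1.37 to 0.117 CPM (log2 -3.48). Of these groups only DMEM averaged above the filter's 1 CPM, so the filter favoured a fall here.

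Among the other receptors, 3 of 5 were tested, of which 1 was higher and 2 lower. Cd180, a TLR4-like receptor that restrains TLR4 responses, fell from 234 to 33.5 CPM (log2 -2.81, adjusted p = 4.5e-08), and Tlr8, another endosomal receptor, from 249 to 128 CPM (log2 -0.95, adjusted p = 1.6e-06). Tlr5, the flagellin receptor, went at a low level from 0.545 to 1.96 CPM. Only CM averaged above the filter's 1 CPM, so the filter favoured a rise here. Of 8 tested co-receptors and trafficking factors, 1 rose and 1 fell: Hsp90b1, a chaperone of TLRs (log2 0.57, adjusted p = 0.00022), and Slc15a4, an endolysosomal transporter needed for TLR7 and TLR9 signals, which fell from 138 to 38.7 CPM (log2 -1.83, adjusted p = 1.6e-07).

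Of 19 tested proximal signalling genes, 9 rose and 3 fell. Ikbke, an IKK-related kinase, was at 296 CPM in DMEM and 643 CPM in CM (log2 1.12, adjusted p = 0.00013), while Irak1, a kinase recruited by MYD88, went from 139 to 87.6 CPM (log2 -0.66, adjusted p = 6.5e-07). Of the 13 genes that restrain TLR signals, 4 rose and 4 fell. Zc3h12a, an RNase that degrades inflammatory mRNAs, rose from 39.6 to 537 CPM (log2 3.76, adjusted p = 8.8e-10) and Tnfaip3, the ubiquitin-editing protein A20, from 65.2 to 530 CPM (log2 3.02, adjusted p = 1.2e-07). Sigirr fell from 4.74 to 1.32 CPM (log2 -1.84, adjusted p = 3.9e-05).

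Endogenous TLR ligands were called higher in 4 of 7 tested genes and lower in 0 by edgeR, with 0 also at an unadjusted p under 0.05 and by DESeq2. S100a8, 1 of the 4, reached at most 2.46 CPM in any sample. The neutrophil markers, S100a8 among them, summed to at most 0.413 CPM in DMEM and 0.558 CPM in DMEM + Rux. It thus passed the filter only through samples with CM, so the filter favoured its rise. Saa3, a serum amyloid A protein that can act on TLRs, rose from 8.21 to 829 CPM (log2 6.65, adjusted p = 1.1e-06), and Tnc, a matrix protein that can act on TLR4, from 1.31 to 25.8 CPM (log2 4.34, adjusted p = 1.2e-06).

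In CM + Rux against CM 1 of these 55 genes was called, where 1.2% of all genes were called higher and 2.13% lower. Ticam2, the adaptor TRAM that links TLR4 to TRIF, rose from 44.8 to 84.1 CPM (log2 0.91, SE 0.09, adjusted p = 5.7e-05), without overlap, while Tlr4 fell in the same samples. The ruxolitinib effect on Ticam2 differed between CM and DMEM (log2 0.85, adjusted p = 0.012). The labels give no dose for DMEM + Rux, and how this call fares without single samples is not given here. By edgeR 0 of the 55 were called lower, 1 at an unadjusted p under 0.05 and 1 by DESeq2. In DMEM + Rux against DMEM edgeR called 0 in either direction, near the shares over all genes of 0% higher and 0.97% lower. There 1 was lower at an unadjusted p under 0.05 and 0 by DESeq2.

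With IKK-16 added to CM + Rux, 2 of the 55 rose and 7 fell, where 4.07% of all genes were called higher and 3.66% lower, so that the number that rose was near the share over all genes. The brakes Tnfaip3, from 675 to 333 CPM (log2 -1.02, adjusted p = 0.0026), and Tnip1, from 804 to 510 CPM (log2 -0.66, adjusted p = 0.0034), were lower, and Cd180 was higher, from 50.6 to 75.7 CPM (log2 0.58, adjusted p = 0.033), though its groups overlapped. The ligand Saa3 fell from 671 to 73.6 CPM (log2 -3.19, adjusted p = 0.00054) and Vcan from 101 to 25.3 CPM (3.99-fold, adjusted p = 4.4e-05). Against CM the counts were 3 higher and 6 lower, where 6.6% and 6.13% of all genes were. In the samples with 2 h in the label against those with 4 h, 9 were higher and 8 lower, near the 12.6% and 10.7% of all genes, among them Cd180 (log2 1.69, adjusted p = 1.7e-05) and Slc15a4 (log2 0.81, adjusted p = 0.0007), which were higher beside Tlr7 and Tlr9.

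Among tested genes that averaged 5 CPM or more, those whose pattern was most like each of the 10 were found by Pearson correlation over the 16 samples. The values given are the highest of all those searched, over groups that differ widely between CM and DMEM. They are a description and were not tested. For Cd14 they were Trem1 (r = 0.994), Socs3 (r = 0.994) and Ier3 (r = 0.993), and for Tlr2 they were Cxcl1 (r = 0.992), Syk (r = 0.992) and Amotl1 (r = 0.991). Tlr13 was most like Otulinl (r = 0.990), Tlr7 most like Kif3a (r = 0.979), Myd88 most like Cct5 (r = 0.972) and Tlr9 most like Slc46a1 (r = 0.966). The closest values were lower for Tlr3 (Dck, r = 0.954), Tlr4 (Zfp608, r = 0.941), Tlr1 (AI662270, r = 0.883) and Tlr6 (Srm, r = 0.835). Without the block, Tlr1 and Tlr6 were called in no comparison, and Tlr6 stayed between 32.0 and 50.2 CPM in all 16 samples.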

How the data were processed

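RNA of 16 samples in 6 groups was sequenced by the study, and the deposited values are fragment counts per gene that the authors made from paired reads with Trimmomatic 0.33, HISAT2 2.1.0 and GRCm38, and featureCounts 1.6.2, without fragments that aligned to several places or overlapped several genes. Totals of 18449388 to 46215853 per sample set the precision. Gene symbols were matched for 55141 of 55487 identifiers, and the 346 without a symbol took up to 0.0459% of any sample's counts. The 12372 genes that exceeded 1 CPM in 2 or more samples entered 1 fit over all samples in edgeR 4.0.16 (R 4.3.3), with RLE scaling factors and quasi-likelihood tests. Calls needed an adjusted p (Benjamini-Hochberg) under 0.05 and a log2 fold change beyond 0.5. Tables and figures were made with Python 3.11.15.

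The 10 genes and the other lists were chosen with earlier results of these data known. All 10 are named, and of each other pathway list at most the 2 largest called changes in each direction. Intervals of log2 fold changes are at 95%. Alternatives were TMM or total-count scaling, no or another filter, a replicate block, the likelihood ratio test, DESeq2 1.42.0, only the groups compared, no adjustment, no fold threshold, and leaving out each sample.

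Samples with the same number in CM, CM + Rux and CM + Rux + IKK-16 deviated together (9 correlations of 0.473 to 0.717), so these numbers were taken to pair samples, from the data, since the labels do not say what a number marks. On simulated counts for CM against DMEM, 94.0% of genes with a log2 change of 1 and 99.0% with 2 were recovered. Recovery meant an adjusted p under 0.05 in the right direction, without the fold threshold. The changed genes were few and well above the filter on low counts, and samples were simulated without pairing. These shares are therefore not the power of the calls reported here.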

Additional observations from a re-analysis of the deposited data

Results flagged for a closer look

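The ruxolitinib effect on Tlr4 differed between CM and DMEM by -0.94 (log2, SE 0.18, adjusted p = 0.041, interaction test of edgeR). It was -1.04 in CM, lower in 3 of 3 same-numbered pairs, and -0.09 in DMEM, where the groups overlapped. The 2 medium conditions share no samples, and the labels give no ruxolitinib dose for DMEM + Rux, so the doses may differ. The call was lost on leaving out most single samples and with only the groups compared in the fit.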

How the results depend on the processing

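Of 287 recomputed log2 fold changes of the 21 calls, 267 kept direction and call, 20 kept direction but lost the call, and 0 reversed. Counts of the 10 genes differed from those reported in these cases. Genes higher in CM + Rux against CM went from 0 to 1 without the filter on low counts and to 1 at an unadjusted p. Genes with a higher ruxolitinib effect in CM than in DMEM went from 0 to 1 without the filter, to 1 with the replicate block and to 3 at an unadjusted p. Genes lower in CM + Rux + IKK-16 against CM went from 1 to 0 with total-count scaling and to 2 without a fold threshold, and ranged from 1 to 2 when single samples were left out, with Cd14 added without CM + Rux + IKK-16 replicate 2. Genes lower in CM + Rux + IKK-16 against CM + Rux went from 0 to 1 with the replicate block (Tlr1) and to 1 without a fold threshold (Myd88), and ranged from 0 to 1 on leaving out single samples, with Myd88 added without CM + Rux replicate 1 or 2 or IKK-16 replicate 2 or 3. Genes lower in CM + Rux against CM went from 1 to 2 without a fold threshold (Tlr3). With only the groups compared, genes lower in DMEM + Rux went from 1 to 0, and so did those with a lower ruxolitinib effect in CM than in DMEM. Both ranged from 0 to 1 when single samples were left out. Genes higher in CM + Rux + IKK-16 against CM went from 3 to 2 with only the groups compared and without CM replicate 2 or 3 or IKK-16 replicate 1 or 3, and genes higher in CM against DMEM from 3 to 2 with total-count scaling and without DMEM replicate 2. The cause was not tested.

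The replicate block changed no other call of the 10 genes than those of Tlr1 and Tlr2 given in the report. Over all genes it raised the calls in CM + Rux against CM from 149 higher and 263 lower to 305 and 440, and those of the difference between ruxolitinib effects from 29 and 22 to 247 and 197. DMEM and the samples with 2 h in the label have 2 samples each, so leaving out 1 of them leaves a lone sample assumed to vary like the other groups. The lowest numbers of fragments were those of Tlr3 (188) and Tlr9 (209).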
